A study of Mus musculus with 9 samples.

Results

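The sarcomeric myosin heavy chain genes Myh1, Myh2, Myh3, Myh4, Myh6, Myh7, Myh7b, Myh8 and Myh13 were taken by symbol from the gene count table, where they were 9 of 32594 genes. The table covers 9 libraries of hindlimb skeletal muscle from mice on the FVB/N background, 5 of wild type (WT) and 4 of the SMN delta 7 line (SMA), a mouse model of spinal muscular atrophy in which too little survival motor neuron protein is made. The labels give no age, treatment or litter, do not say which hindlimb muscles were taken, and do not say that each library came from its own animal, so the p-values given here reflect only how far these libraries differ among themselves, and part of that spread may be technical. All 9 genes had enough counts to be tested.

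A myosin heavy chain is the motor of the thick filament. Each fibre makes mainly 1 of several chains, and the chain sets how fast the fibre shortens and what it costs in ATP. Myh4 encodes the fastest adult chain (IIb), Myh1 the IIx chain, Myh2 the IIa chain and Myh7 the slow beta chain, which is also the ventricular chain of the heart in large mammals. Myh3 and Myh8 encode the embryonic and perinatal chains of developing muscle, which are replaced by adult chains after birth and can return in regenerating or denervated fibres. Myh6 encodes the alpha chain of the heart, Myh7b an ancient slow tonic chain and Myh13 the chain of extraocular muscle.

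Library totals ran from 24917665 to 35087722 counts. Smn1, the gene for the mouse survival motor neuron protein, had 11.1 to 13.8 CPM (counts scaled to a common effective library size) in WT and 1.40 to 2.72 CPM in SMA, so the libraries matched their labels. Defining genes of the muscle fibre (Acta1, Ckm, Ttn, Des, Mb and Tnnt3) summed to 70973 to 102738 CPM in WT and 43057 to 51960 CPM in SMA. Y-linked genes were expressed in 4 WT libraries and 1 SMA library. On principal component 2 of all tested genes SMA 3 scored -43.4, away from the 14.6 to 15.4 of SMA 1, 2 and 4, and WT 5 had the highest WT score, 18.2. Log2 fold changes, given with their standard error (SE), and adjusted p-values come from the quasi-likelihood test of edgeR, adjusted by Benjamini-Hochberg over 15873 genes, and a gene is said to have risen or fallen where the adjusted p is under 0.05. Of the 6 fibre genes above 5 fell and 1 did not pass (83.3% called, beside 54.9% of all genes tested). Their median log2 fold change was -1.01. In bulk muscle, fewer fibres of a type and less RNA per fibre cannot be told apart.

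Of the 9 heavy chain genes 3 rose in SMA (Myh8, Myh7b and Myh6), 2 fell (Myh4 and Myh2) and 4 did not pass (Myh1, Myh3, Myh7 and Myh13). The 5 calls are 55.6% of the genes, beside 54.9% of all genes tested, so being called does not set the family apart. Rises made up 27.7% and falls 27.2% of all genes tested. The members' median log2 fold change was 0.57, beside 0.006 for all genes. The summed level of the 9 genes was 63656 ± 10097 CPM in WT (SD, n = 5) and 36096 ± 4799 CPM in SMA (SD, n = 4), while that of the 8 genes other than Myh4 was 8272 ± 1888 and 12577 ± 2226 CPM.

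Myh4 was the most abundant chain in every library and the chain that lost most RNA. Its level was 65054, 43599, 62869, 48405 and 56993 CPM in WT 1 to 5 and 23314, 24682, 19265 and 26817 CPM in SMA 1 to 4. The groups did not overlap, and the highest SMA library lay far under the lowest WT library. Levels of 4 of the 9 members (Myh4, Myh6, Myh7b and Myh8) did not overlap between groups, beside 44.2% of all genes tested. The fall was 2.36-fold, a log2 fold change of -1.24 ± 0.17 (adjusted p = 6.78e-05 by edgeR). Before scaling, it took 5.12% ± 0.677 of all counts in WT (SD, n = 5) and 2.57% ± 0.288 in SMA (SD, n = 4).

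Myh1, the IIx chain, stayed within its WT range. Its level was 6945, 5880, 6141, 4529 and 4247 CPM in WT and 6805, 6915, 5672 and 5152 CPM in SMA, and every SMA library lay between the lowest and the highest WT library. The log2 fold change was 0.15 ± 0.16 (adjusted p = 0.471 by edgeR).

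Myh2, the IIa chain, was lower in SMA, with an overlap between groups. The WT libraries had 1572, 1499, 1699, 943 and 1059 CPM and the SMA libraries 928, 1140, 827 and 882 CPM. WT 4 and WT 5 lay inside the SMA range, while WT 1, 2 and 3 lay above all SMA libraries. Myh2 fell by 0.52 ± 0.18 in log2 units (adjusted p = 0.0261 by edgeR). The call was lost when scaling to library totals alone (-0.30, adjusted p = 0.181), with sex as a covariate (-0.54, adjusted p = 0.058) and without WT 1, WT 2, WT 3, SMA 1, SMA 3 or SMA 4, with values from -0.51 to -0.43.

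**Figure D1:**
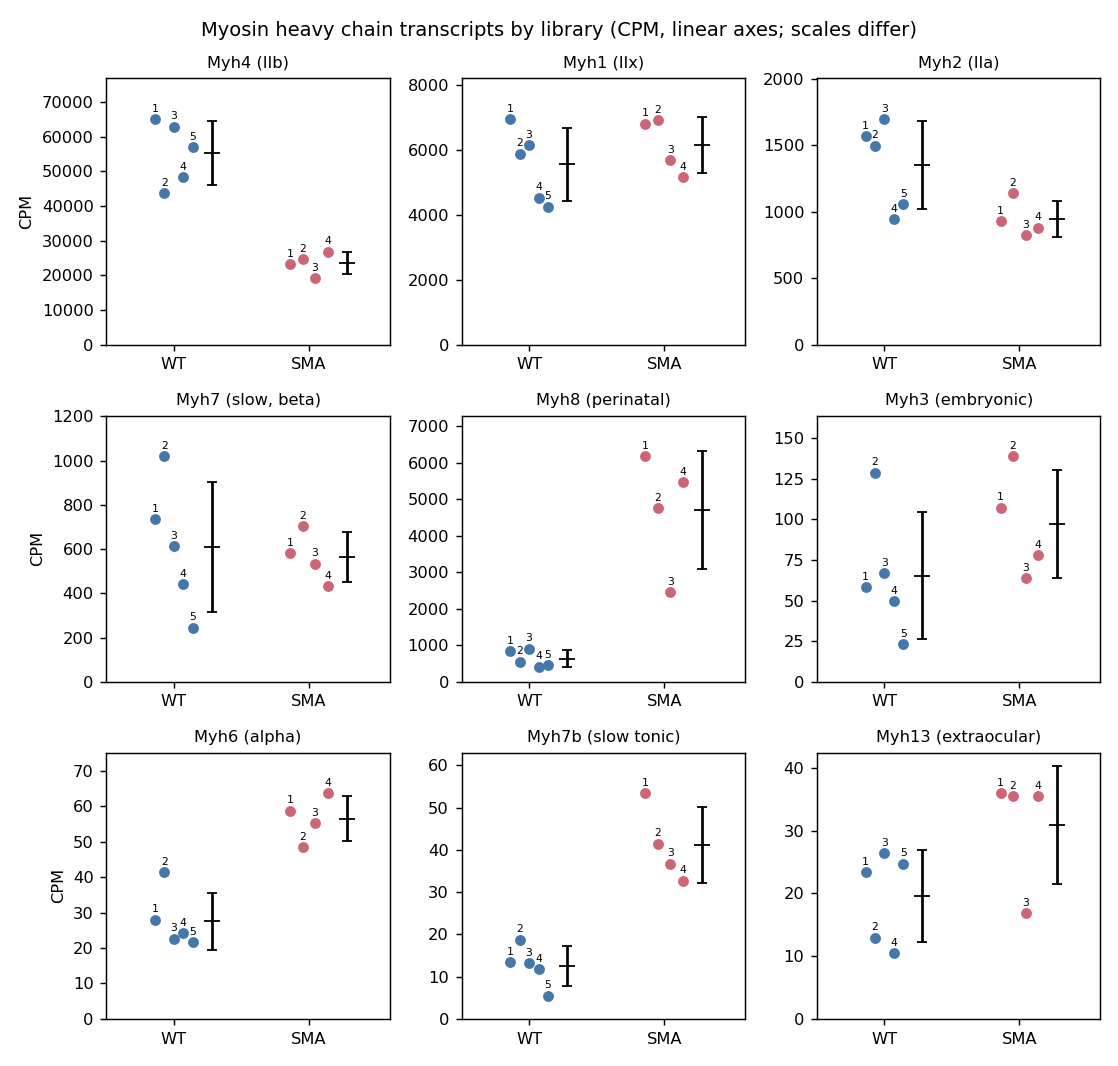
Level of each heavy chain gene in each library, in CPM on linear axes that differ between panels. Points are libraries with their replicate number, blue for WT and red for SMA, and bars are the mean and SD. Myh4, Myh8, Myh6 and Myh7b have groups that do not overlap, Myh8 being lowest among SMA libraries in SMA 3 (2447 CPM), and Myh1 and Myh7 have groups that do.

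Myh8, the perinatal chain, had the largest fold change of the family. Its level was 842, 551, 906, 415 and 452 CPM in WT and 6176, 4749, 2447 and 5459 CPM in SMA. The lowest SMA library, SMA 3, was still above every WT library, and the SMA libraries differed among themselves more than those of WT in absolute terms. Myh8 rose 7.44-fold, or by 2.89 ± 0.30 in log2 units (adjusted p = 9.25e-06 by edgeR). With any 1 library left out the log2 change stayed between 2.74 and 3.11.

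Myh3, the embryonic chain, did not pass the test. Its level was 58.5, 129, 66.8, 49.6 and 23.1 CPM in WT and 107, 139, 64.0 and 78.1 CPM in SMA. WT 2 alone reached the higher SMA values, and SMA 3 fell below WT 3. The log2 fold change was 0.57 ± 0.38, with an adjusted p of 0.22 by edgeR, and without WT 2 it was 0.97 with an adjusted p of 0.021.

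Genes that mark regenerating or fusing muscle moved in both directions. The 6 genes listed were Myod1, Myog, Ncam1, Cdh15 and the fusion genes Mymk and Mymx, named Tmem8c and Gm7325 here. Of these 1 rose, 3 fell and 2 did not pass (66.7% called, beside 54.9% of all genes tested). Their summed level was 243 to 266 CPM in WT and 223 to 252 CPM in SMA. Ncam1, a cell adhesion gene that denervated fibres also express, rose by 0.97 ± 0.15 in log2 units, from 27.4 to 53.8 CPM. Tmem8c fell by 1.65 ± 0.16, Gm7325 by 0.76 ± 0.18 and Myog by 0.41 ± 0.087. Markers of dividing cells (Mki67, Top2a, Ccnb1 and Cdk1) summed to 91.6 to 121 CPM in WT and 19.8 to 28.5 CPM in SMA. All 4 of these markers fell, beside 27.2% of all genes tested. Their part in the rise of Myh8 was not tested.

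Myh7, the slow beta chain, spread widely in WT and showed no difference beyond that spread. It had 735, 1020, 614, 440 and 245 CPM in WT and 580, 704, 534 and 433 CPM in SMA. All SMA libraries lay inside the WT range, which ran from WT 5 to WT 2. The log2 fold change was -0.12 ± 0.31, with an adjusted p of 0.773 by edgeR, and its sign changed to 0.078 with library totals, to 0.014 with limma-voom and to 0.14 without WT 2.

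Myh7b, the slow tonic chain, rose. It had 13.5, 18.8, 13.2, 11.8 and 5.53 CPM in WT and 53.4, 41.5, 36.8 and 32.7 CPM in SMA. The groups did not overlap. The rise was 3.26-fold, or 1.71 ± 0.26 in log2 units (adjusted p = 1.64e-04 by edgeR). Its longest coding transcript shared no run of 75 bases, the read length, with those of the other members.

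Myh6, the alpha chain best known from the heart, rose as well. Its level was 28.1, 41.4, 22.7, 24.1 and 21.7 CPM in WT and 58.8, 48.4, 55.2 and 63.7 CPM in SMA, without overlap. The rise was 2.05-fold, or 1.03 ± 0.17 in log2 units (adjusted p = 3.16e-04 by edgeR). Other genes of heart muscle were higher too, since Tnnt2, Tnni3, Mybpc3, Ryr2 and Nppa all rose (100% of those tested, beside 27.7% of all genes). Nppb and Myl7 had too few counts to be tested. The 7 genes summed to 22.6 to 26.4 CPM in WT and 40.3 to 59.7 CPM in SMA, most of it Tnnt2 (21.6 and 32.3 CPM on average), which immature skeletal muscle also makes. The atrial peptide gene Nppa had 0.0879 to 0.496 CPM in WT and 1.57 to 5.87 CPM in SMA and rose by 3.70 ± 0.53 in log2 units (adjusted p = 1.21e-04 by edgeR), the largest rise of the 5 tested. Mybpc3, the cardiac myosin-binding protein C, rose by 2.98 ± 0.45 (adjusted p = 1.59e-04 by edgeR). The atrial light chain gene Myl7 had 0, 5, 2, 1 and 7 counts in WT and 13, 10, 13 and 20 in SMA, and Nppb had 0, 1, 0, 2 and 1 counts in WT and 8, 15, 15 and 25 in SMA, so neither overlapped between groups. SMA 4 had the highest Nppa, Mybpc3, Tnni3 and Myh6, while Tnnt2 was highest in SMA 1 and Ryr2 in SMA 3. Among WT libraries, WT 5 had the highest Nppa (0.496 CPM) and Mybpc3 (0.992 CPM) but the lowest Myh6 (21.7 CPM). The part of heart muscle genes in the rise of Myh6 was not tested. Of the 75-base runs in the longest Myh6 transcript 15.6% also occur in Myh7.

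Myh13, the extraocular chain, was present at a low level and set apart by 1 library. It had 23.4, 12.9, 26.4, 10.5 and 24.7 CPM in WT and 35.9, 35.5, 16.8 and 35.5 CPM in SMA. SMA 1, 2 and 4 were above all WT libraries, and SMA 3 was inside the WT range. The log2 fold change was 0.66 ± 0.29, with an adjusted p of 0.0685 by edgeR. It passed without SMA 3 (0.87, adjusted p = 0.0117), without WT 3 (0.79, adjusted p = 0.0457) and with library totals (0.91, adjusted p = 0.00894). Up to 5.13% of the 75-base runs of Myh13 occur in other members, most of them in Myh8.

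**Figure D2:**
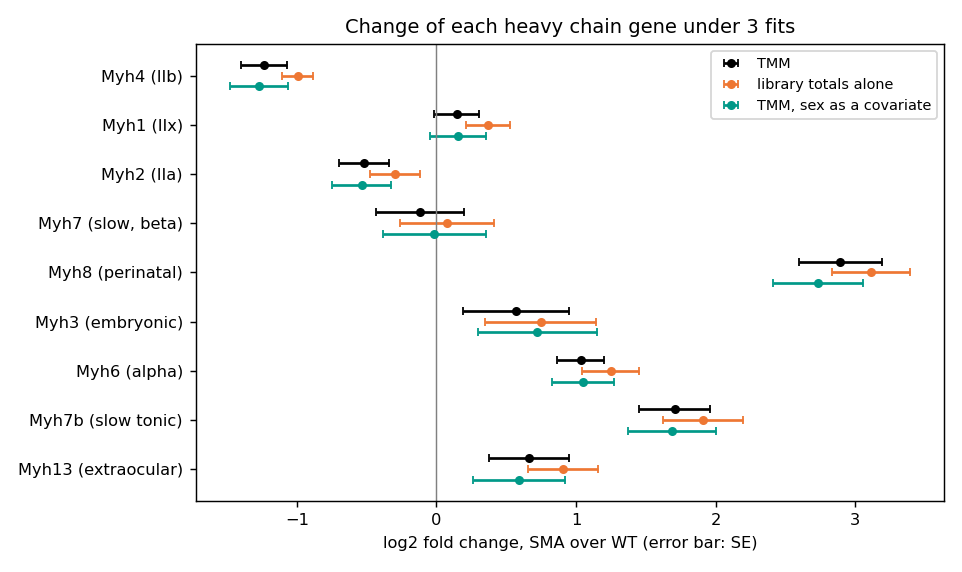
Log2 fold change of each heavy chain gene, SMA over WT, with its SE, under TMM scaling (trimmed mean of M values), under library totals alone and under TMM with sex as a covariate. Library totals move the median of all genes from 0.006 to 0.24 and turn the sign of Myh7, while Myh8 at 2.89 and Myh4 at -1.24 keep their sign under all 3.

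As shares of the counts of the 9 genes, which need no library scaling, Myh4 gave way to Myh8 and Myh1. The tests of shares are exact permutation tests, two-sided, of the difference of group means. Neither they nor the tests of ratios take account of sex, though Y-linked genes were expressed in 4 WT libraries and 1 SMA library. In all 9 shares were tested, p-values were not adjusted, and 0.00794 is the smallest p that 5 against 4 libraries can give. Myh4 took 86.4%, 82.7%, 86.9%, 88.3% and 90.4% in WT and 61.3%, 64.2%, 66.6% and 68.8% in SMA (exact permutation p = 0.00794). Myh8 went from 1.12%, 1.04%, 1.25%, 0.757% and 0.716% to 16.2%, 12.4%, 8.46% and 14.01% (exact permutation p = 0.00794). Per kilobase of merged exon the mean share of Myh8 went from 0.508% to 7.12%, a difference of 6.61 points in place of 11.8, and per kilobase of the longest coding transcript, a length chosen after the data were seen, the difference was 11.6 points. Neither chain had overlapping groups.

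The share of Myh1 was 9.23%, 11.1%, 8.49%, 8.26% and 6.73% in WT and 17.9%, 18.0%, 19.6% and 13.2% in SMA (exact permutation p = 0.00794), although its level did not differ beyond its spread. The mean level of Myh4 dropped by 31864 CPM, and that of Myh8 was higher by 4075 CPM, which is 12.8% of the Myh4 loss, while Myh1 differed by 587 CPM, or 1.84% of it. Shares of Myh2 (2.14% ± 0.482 and 2.63% ± 0.335, SD, n = 5 and 4, exact permutation p = 0.103) and Myh7 (0.990% ± 0.572 and 1.58% ± 0.345, exact permutation p = 0.111) did not pass, though that of Myh7 did without WT 2 (a difference of 0.825 percentage points, exact permutation p = 0.0286).

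The minor chains Myh3, Myh6, Myh7b and Myh13 together made up 0.119% to 0.383% of the family's counts in WT and 0.539% to 0.687% in SMA. Myh6 took 0.0451% ± 0.0192 in WT and 0.159% ± 0.0268 in SMA, Myh7b 0.0204% ± 0.00972 and 0.115% ± 0.0245, and Myh13 0.0301% ± 0.00835 and 0.0840% ± 0.0173 (SD, n = 5 and 4), each with an exact permutation p of 0.00794. The share of Myh3 was 0.108% ± 0.0792 and 0.266% ± 0.0722 (exact permutation p = 0.0317), with WT 2 at 0.244% inside the SMA range, and its call was lost without WT 1, 3, 4 or 5 or SMA 1 or 2 (differences of 0.126 to 0.154 percentage points). In WT this minor fraction was highest in WT 2, whose Myh3 made up most of it.

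Because the fall of Myh4 raises every other share, shares were also taken over the 8 other genes, a choice made after the data were seen. There Myh8 went from 7.54% ± 1.41 in WT to 36.7% ± 8.74 in SMA, and Myh7b from 0.150% ± 0.0451 to 0.328% ± 0.0519 (SD, n = 5 and 4, exact permutation p = 0.00794 for each). Myh1 then went the other way, from 67.5% ± 2.88 to 49.4% ± 7.00, as did Myh2, from 16.4% ± 1.35 to 7.60% ± 1.04 (exact permutation p = 0.00794 for each). Myh3 held 0.767% ± 0.388 and 0.761% ± 0.169 (exact permutation p = 0.984), and Myh13 0.244% ± 0.106 and 0.242% ± 0.0497 (exact permutation p = 0.968). Myh6 held 0.340% ± 0.0845 and 0.462% ± 0.104 (exact permutation p = 0.103). Of the 6 genes other than Myh4 whose share of all 9 was higher in SMA past the threshold, Myh8 and Myh7b were also higher among the 8.

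**Figure D3:**
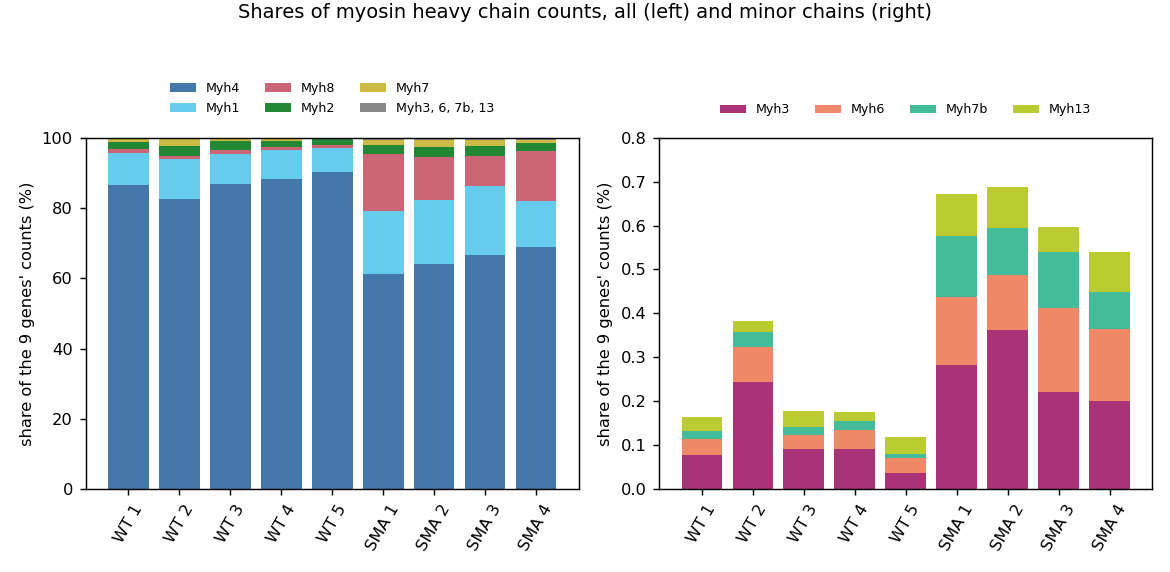
Share of each gene in the summed counts of the 9 heavy chain genes, 1 bar per library, for all genes on the left (0 to 100%) and for Myh3, Myh6, Myh7b and Myh13 alone on the right (0 to 0.8%). Myh4 fills 82.7% to 90.4% of the WT bars and 61.3% to 68.8% of the SMA bars, and the minor chains together are highest in the 4 SMA libraries.

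Ratios between pairs of chains showed which balances moved, since library scaling cancels in them. Gene length stays in each ratio of counts and cancels only when the groups are compared on the log2 scale. In all, 7 ratios were compared on the log2 scale by the same exact test, unadjusted. Among these 7 the largest shift was of the perinatal against the IIb chain, as the Myh8 to Myh4 ratio was 0.0129, 0.0126, 0.0144, 0.00858 and 0.00793 in WT and 0.265, 0.192, 0.127 and 0.204 in SMA, a 17.3-fold difference (exact permutation p = 0.00794). The Myh1 to Myh4 ratio, IIx against IIb, was 2.62-fold higher in SMA (exact permutation p = 0.00794). Of the 75-base runs in the longest coding transcript, 16.6% of Myh1, 16.3% of Myh2, 12.9% of Myh8 and 9.68% of Myh4 also occur in other members. Myh1 and Myh2 share 12.6% with each other. The effect of shared runs on the ratios was not tested.

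The IIa chain lost ground to the IIx chain. The Myh2 to Myh1 ratio was 0.226, 0.255, 0.277, 0.208 and 0.249 in WT and 0.136, 0.165, 0.146 and 0.171 in SMA, without overlap (exact permutation p = 0.00794), a log2 difference of -0.65. This ratio kept its call, on an unadjusted p, when any 1 library was left out. The call of Myh2 as a level did not always hold, but it rests on a p adjusted over all genes tested. With all libraries that adjusted p was 0.0261 by edgeR, beside 0.0128 before adjustment. The stability of the ratio call and the level call therefore cannot be compared.

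The developmental chains also separated from each other. There were 14.4, 4.28, 13.6, 8.37 and 19.6 Myh8 counts per Myh3 count in WT and 57.6, 34.2, 38.2 and 69.9 in SMA, a 4.499-fold difference (exact permutation p = 0.00794). Every SMA library was above every WT library.

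Among the slow chains the Myh7b to Myh7 ratio was 3.41-fold higher in SMA, at 0.0184 to 0.0269 in WT and 0.0589 to 0.0921 in SMA (exact permutation p = 0.00794). The Myh6 to Myh7 ratio was 2.08-fold higher (exact permutation p = 0.0317), with WT 5 at 0.0889 inside the SMA range of 0.0688 to 0.147, and its call was lost when any library but WT 5 or SMA 2 was left out (log2 differences of 0.87 to 1.09). The slow to IIa ratio, Myh7 to Myh2, had a log2 difference of 0.51, from -1.27 ± 0.575 to -0.76 ± 0.181 (SD, n = 5 and 4), and did not pass (exact permutation p = 0.175), but did without WT 2 (0.69, exact permutation p = 0.0286).

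**Figure D4:**
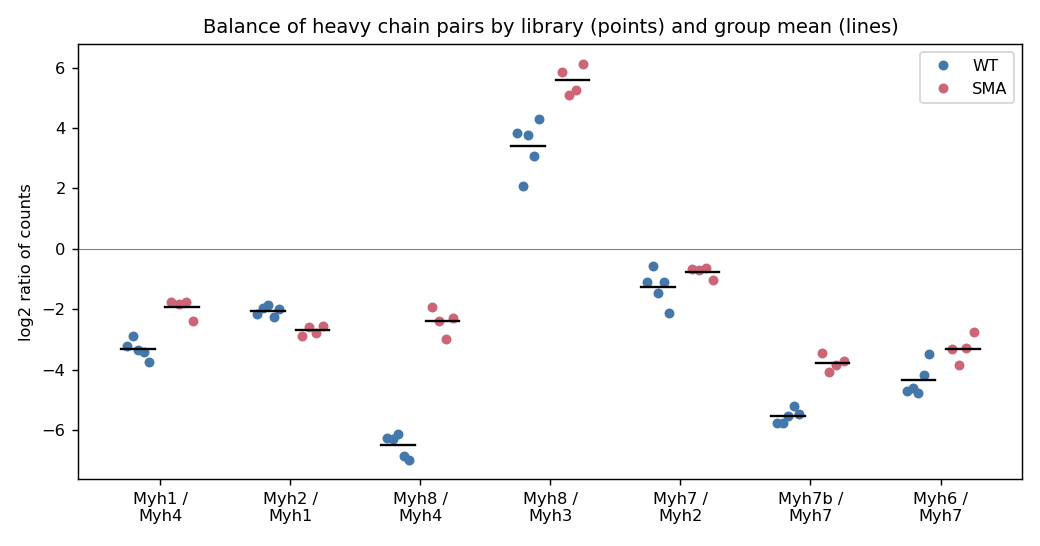
Log2 ratio of the counts of 7 pairs of heavy chain genes in each library (points, blue for WT and red for SMA) with the group means as lines. The Myh8 to Myh4 ratio is farthest apart, the Myh2 to Myh1 ratio is lower in all 4 SMA libraries than in all 5 WT libraries, and the Myh7 to Myh2 and Myh6 to Myh7 ratios overlap between groups.

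Per kilobase of exon, the order in WT was Myh4 (9206 CPM per kb), Myh1 (873), Myh2 (190), Myh7 (70.9), Myh8 (53.8), Myh3 (10.8), Myh6 (4.10), Myh13 (3.17) and Myh7b (1.90), as group means. The ranges of Myh7 and Myh8 overlapped in WT, as did those of neighbours from Myh3 down to Myh7b. In SMA Myh8 stood above Myh2 and Myh7, in the order Myh4 (3910 CPM per kb), Myh1 (966), Myh8 (400), Myh2 (132), Myh7 (65.3), Myh3 (16.03), Myh6 (8.40), Myh7b (6.19) and Myh13 (5.01), and only the last 3 overlapped with a neighbour. The merged exons of Myh8 span 11.77 kb in the annotation and its longest coding transcript 6149 bases. With transcript lengths Myh8 had 766 ± 263 CPM per kb in SMA, its range overlapped that of Myh1 (1009 ± 142, SD, n = 4), and in WT it came just above Myh7 (103 and 98.0 CPM per kb).

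The 6 genes Myh3, Myh2, Myh1, Myh4, Myh8 and Myh13 stand in this order, all on the plus strand, within 293.3 kb of chromosome 11 (67078300 to 67371586, mm10). Myh6 (54941921 to 54966927) and Myh7 (54970684 to 54994626) are neighbours on the minus strand of chromosome 14, and Myh7b (155611212 to 155634307) is on chromosome 2. Along the cluster the changes had no common direction, since Myh4 (67238029 to 67260446) fell and its neighbour Myh8 (67277124 to 67308634) rose. In mice a long non-coding RNA gene, 2310065F04Rik (also named linc-Myh), lies on the minus strand between Myh3 and Myh2 (67112461 to 67120080), and it is known as a fibre type regulator controlled by a shared enhancer of the fast genes.

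That RNA fell. Its level was 49.7, 43.4, 47.2, 63.2 and 123 CPM in WT and 10.1, 12.4, 11.9 and 11.4 CPM in SMA. The groups did not overlap, the SMA libraries were close together and WT 5 was far above the other WT libraries. It fell by 2.51 ± 0.29 in log2 units (adjusted p = 2.13e-05 by edgeR), and by 2.15 without WT 5. Of 11 non-coding genes listed for these loci 6 were in the table under the names searched and 2 could be tested. The other was Mhrt, which lies antisense to part of Myh7 and rose by 0.97 ± 0.29 in log2 units (adjusted p = 0.0127 by edgeR) from a level of 0.291 to 0.577 CPM. With sex as a covariate its call was lost (0.97, adjusted p = 0.0504). How the counting treated strand is not given in the sources used here. Whether reads of Myh7 were counted for Mhrt where the genes overlap is therefore not known.

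**Figure D5:**
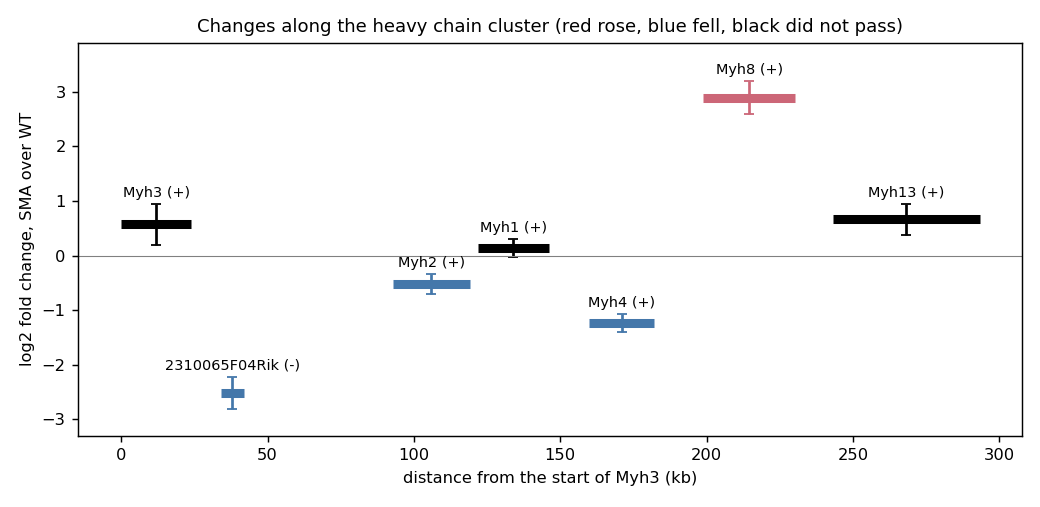
Log2 fold change (SMA over WT, with SE) of the genes of the chromosome 11 cluster against the distance from the start of Myh3 in kb, each bar spanning the gene, with its strand in brackets. The non-coding gene 2310065F04Rik at -2.51 and Myh4 at -1.24 fell, Myh8 at 2.89 rose, and Myh3, Myh1 and Myh13 did not pass.

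Promoter windows from RefSeq (GRCm38.p6, the mm10 assembly), 250 bases before to 50 after each start site, were matched for all 9 genes. They are shown for Myh4 and Myh8 because these neighbours changed in opposite directions. Windows of the 3 adult fast genes and Myh8 were compared for exact shared runs of at least 8 bases, and capitals mark the longest, TTCTAATTATATCC. Full windows are given 5′ to 3′ on the plus strand for Myh4 (chr11:67237562-67237861) and Myh8 (chr11:67276874-67277173), and the 44 bases around the shared run for Myh1 (chr11:67199927-67199970) and Myh2 (chr11:67170887-67170930).
Myh4: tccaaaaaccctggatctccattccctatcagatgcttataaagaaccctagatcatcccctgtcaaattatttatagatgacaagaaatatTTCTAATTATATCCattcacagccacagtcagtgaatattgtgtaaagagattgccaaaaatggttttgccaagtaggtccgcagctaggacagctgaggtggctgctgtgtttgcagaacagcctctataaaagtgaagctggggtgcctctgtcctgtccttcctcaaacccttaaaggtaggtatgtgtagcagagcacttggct
Myh8: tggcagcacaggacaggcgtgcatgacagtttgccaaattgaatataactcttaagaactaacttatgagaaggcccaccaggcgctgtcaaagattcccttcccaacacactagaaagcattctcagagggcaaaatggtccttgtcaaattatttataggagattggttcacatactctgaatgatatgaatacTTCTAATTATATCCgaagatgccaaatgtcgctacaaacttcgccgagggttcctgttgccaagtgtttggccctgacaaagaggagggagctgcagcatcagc
Myh1: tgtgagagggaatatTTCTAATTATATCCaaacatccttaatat
Myh2: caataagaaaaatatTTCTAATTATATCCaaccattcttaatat

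The shared run of 14 bases begins at position -158 from the RefSeq start site in Myh4, -160 in Myh1, -125 in Myh2 and -54 in Myh8. For Myh4 this site differs from the GENCODE gene start given above (67238029), which lies past the end of the window (67237861). Searched on both strands, it was in 4 of 32851 promoter windows (0.012%), those of these 4 genes, and its letters are not in the windows of the other members. The next shared run, TCAAATTAT, was in 0.18% of windows. A match to the MEF2 site, the binding motif of a muscle transcription factor family, was found on the minus strand in Myh1, Myh4 and Myh8, where it overlaps TCAAATTAT, and 1.9% of all windows hold such a match on either strand. Of the 4 genes with the 14-base run, Myh8 rose, Myh4 and Myh2 fell, and Myh1 did not pass.

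The 3 genes outside the chromosome 11 cluster each carry a microRNA in an intron. These microRNAs, known as regulators of slow and cardiac gene programmes, are shown because 2 of their host genes, Myh7b and Myh6, rose. Capitals mark the seed, bases 2 to 8, in the mature sequences from RefSeq (GRCm38.p6).
miR-499-5p, in Myh7b: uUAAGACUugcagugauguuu
miR-208a-3p, in Myh6: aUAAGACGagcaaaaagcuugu
miR-208b-3p, in Myh7: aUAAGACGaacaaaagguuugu

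The Myh6 and Myh7 microRNAs share the seed UAAGACG, and that of Myh7b has UAAGACU. Their precursor genes had at most 3 counts in any library in this polyadenylated RNA, so their levels were not detectable here and were not compared.

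After each group's mean was removed, log2 levels over the 9 libraries correlated at 0.93 between Myh3 and Myh7, 0.92 between Myh7 and Myh7b, 0.87 between Myh1 and Myh2, 0.88 between Myh4 and Myh13, 0.81 between Myh1 and Myh7 and 0.74 between Myh4 and Myh8, while Myh4 and Myh7 had -0.20 and Myh4 and Myh6 -0.41. WT 2 was high and WT 5 low for Myh3, Myh7 and Myh7b, and SMA 3 was the lowest SMA library for Myh4, Myh8, Myh13 and Myh3. These are descriptions over 9 libraries that share their scaling. Among 8728 other genes with a mean of at least 10 CPM, those most like Myh7b in this sense were Inf2, Clstn1 and the slow troponin gene Tnnc1 (0.99, 0.99 and 0.98), and those most like Myh8 were Prr12, Chd4 and Limch1 (0.98 each). The genes most like Myh4 were Usp28, Ints1 and Sypl2 (0.98, 0.97 and 0.97), those most like Myh7 were Fibin, Anxa5 and Fkbp10 (0.98, 0.97 and 0.97), and those most like Myh13 were Klhl41, Prkar2a and Ubr4 (0.99 each). For Myh1 they were Ilvbl, Map1s and Qsox1 (0.96, 0.92 and 0.91), for Myh2 Pmm2, Btbd9 and Minpp1 (0.96, 0.91 and 0.91), for Myh3 Anxa5, Plcg1 and Olfml2b (0.98, 0.97 and 0.97), and for Myh6 Rab31, Cspp1 and Bscl2 (0.96, 0.94 and 0.94).

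Of the non-muscle and smooth muscle heavy chains Myh9, Myh10, Myh11 and Myh14, 1 rose and 3 did not pass (25% called, beside 54.9% of all genes), with a median log2 fold change of 0.25. Myh14, a non-muscle chain (IIC), had 28.6 ± 0.534 CPM in WT (SD, n = 5) and 66.6 ± 16.6 CPM in SMA (SD, n = 4), and rose by 1.22 ± 0.14 in log2 units (adjusted p = 1.69e-05 by edgeR). Myh9, the most abundant of them, had a log2 fold change of 0.24 ± 0.12 (adjusted p = 0.105 by edgeR), and passed without SMA 3 at 0.36 (adjusted p = 0.00675) and with library totals alone at 0.47 (adjusted p = 0.00397). Myh11, the smooth muscle chain, had 0.25 ± 0.13 (adjusted p = 0.128 by edgeR), and passed without SMA 3 at 0.35 (adjusted p = 0.0235) and with library totals alone at 0.47 (adjusted p = 0.0131), a scaling that moves the median of all genes to 0.24.

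Both light chains of fast fibres fell. Of 7 myosin light chain genes 3 fell, 1 rose and 3 did not pass (57.1% called, beside 54.9% of all genes), with a median of -0.37. Mylpf, the fast regulatory light chain, fell by 1.45 ± 0.14 from 24984 to 9114 CPM, and Myl1, the fast essential light chain, fell by 1.06 ± 0.12 from 5958 to 2848 CPM. Myl6, the non-muscle essential chain, fell by 0.42 ± 0.084, a call lost with library totals alone (-0.19, adjusted p = 0.194). The member that rose was Myl4, the embryonic and atrial light chain, with 0.82 ± 0.17, named here after its value was seen.

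Genes that fold, assemble and remove myosin changed in both directions, as 6 of 16 rose, 8 fell and 2 did not pass, with a median log2 fold change of -0.22 and 87.5% called, beside 54.9% of all genes. Mybpc2, the fast myosin-binding protein C and the most abundant of them, fell by 2.77 ± 0.18 from 5538 to 809 CPM. Unc45a, the general form of the myosin chaperone, rose by 1.12 ± 0.081, and Smyd1, a muscle methyltransferase needed for thick filament assembly, fell by 0.91 ± 0.14. The muscle chaperone Unc45b changed by -0.35 ± 0.10, named after its value was seen.

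Regulators known to act on heavy chain genes also went both ways. Of 25 tested 6 rose, 7 fell and 12 did not pass (52% called, beside 54.9% of all genes, median log2 fold change -0.053). Maf, a large Maf factor known to drive Myh4, fell by 1.02 ± 0.098 from 146 to 71.7 CPM. The retinoid receptor gene Rxrg fell by 0.92 ± 0.079, and the thyroid hormone receptor gene Thra rose by 0.78 ± 0.10 from 111 to 190 CPM. Mef2c, the most abundant regulator listed, had a log2 fold change of -0.31 ± 0.15 and an adjusted p of 0.0939 by edgeR.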

How the data were processed

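Polyadenylated RNA was prepared from 200 ng of total RNA (integrity number above 7) with a stranded kit and sequenced as paired 75-base reads, per the labels' protocols. HTSeq 0.9.1, DESeq2 1.16.1 and mm10 are named in the submitters' processing notes, with no role stated. Aligner, annotation and strand setting: not given in the sources used here. Whole-number counts per gene, as deposited by the authors, were analysed. The second deposited table is a signal, each count divided by a size factor per library (0.734 to 1.23), and served only as a check of the first.

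Counts were fitted in R 4.3.3 with edgeR 4.0.16 (filterByExpr, trimmed mean of M values, quasi-likelihood test, group as the only term) over 15873 genes at a threshold of 0.05. The SE is the absolute log2 fold change over the square root of F. Alternatives were DESeq2 1.42.0, voom in limma 3.58.1, other scalings and filters, sex as a covariate, a replicate block, other share denominators, and left-out libraries. Libraries of a group differed by more than sampling noise (chi-square per degree of freedom 12 to 87.5), so none was counted as a duplicate.

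Shares and ratios were computed in Python 3.11.15 from unscaled counts, ratios with a pseudocount of 0.5, and tested by exact permutation. Log2 CPM for correlations used a prior count of 2. Positions, lengths and transcripts are from GENCODE M21. The members and lists were chosen with earlier results of these data known. Smn1 and, in the lists of related genes and non-coding RNAs, genes outside the family were named by rule, as the 3 with the lowest adjusted p and the most abundant of each list, and the 3 most like each member. Exceptions are said to be such in the text. Single marker genes of other cells and of regenerating muscle were given values after these were seen.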

Additional observations from a re-analysis of the deposited data

Results flagged for a closer look

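Values far from the rest of their group, by a Dixon-type gap rule that chance alone meets in about 1 of 20 groups, occurred 8 times in 84 groups of values examined. Myh13 in SMA 3 had 16.8 CPM, against 35.5 to 35.9 CPM in the other SMA libraries, and a share of 0.0582% against 0.0912% to 0.0944%. The non-coding gene 2310065F04Rik in WT 5 had 123 CPM, against 43.4 to 63.2 CPM in the other WT libraries. WT 2 had a Myh3 share of 0.244%, against 0.0366% to 0.0923%, and a Myh6 share of 0.0784%, against 0.0313% to 0.0440%. SMA 4 had a log2 Myh1 to Myh4 ratio of -2.38, against -1.84 to -1.76, and a log2 Myh7 to Myh2 ratio of -1.03, against -0.70 to -0.63. Smn1 in WT 4 had 11.1 CPM, against 13.1 to 13.8 CPM.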

How the results depend on the processing

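The calls of Myh4, Myh8, Myh6 and Myh7b kept their direction and their side of the threshold in every scaling, filter, tool and left-out library tried, and 4 to 6 members were called in each. Calls over all genes ran from 6883 with sex as a covariate to 9422 without WT 5 and SMA 3. With library totals alone the calls over all genes were 6385 higher and 2164 lower, beside 4393 and 4319 with TMM. The cause of the changes that follow was not tested.

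Scaling to library totals gave log2 fold changes of -0.30 for Myh2 (call lost), 0.078 for Myh7 (sign turned) and 0.91 for Myh13 (now called). Myh2 lost its call with sex as a covariate (-0.54), Myh7 turned sign under limma-voom (0.014), and Myh13 was called without WT 5 and SMA 3 (0.97). There the Myh3 share difference was 0.155 percentage points and lost its call. With 1 library left out in turn, log2 fold changes ran from -0.63 to -0.43 for Myh2, 0.35 to 0.97 for Myh3, -0.32 to 0.14 for Myh7 and 0.50 to 0.87 for Myh13. Share differences then ran from 0.126 to 0.192 points for Myh3 and 0.438 to 0.825 for Myh7, and log2 ratio differences from 0.30 to 0.69 for Myh7 to Myh2 and 0.87 to 1.27 for Myh6 to Myh7.

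Among the 8 genes other than Myh4, chosen after seeing the data, share differences were -18.1 points for Myh1, -8.76 for Myh2, -0.00639 for Myh3, -2.60 for Myh7 and -0.00174 for Myh13, all turned in sign, and 0.122 for Myh6, its call lost.

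The labels do not say whether same-numbered libraries were paired. Deviations of same-numbered libraries correlated at 0.118, -0.006, -0.048 and 0.097. Each value lay inside the range of that SMA library with the other WT libraries, which cannot settle whether a pairing existed. With the replicate block in edgeR 7879 genes and 5 members were called. For shares and ratios 4 pairs cannot give an exact permutation p below 0.125, so no call was possible under the replicate block. Share differences there were -20.8 points for Myh4, 7.90 for Myh1, 11.7 for Myh8, 0.140 for Myh3, 0.111 for Myh6, 0.0915 for Myh7b and 0.0562 for Myh13. Log2 ratio differences were 1.28 for Myh1 to Myh4, -0.64 for Myh2 to Myh1, 3.998 for Myh8 to Myh4, 2.39 for Myh8 to Myh3, 1.79 for Myh7b to Myh7 and 1.27 for Myh6 to Myh7.

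The microRNA precursors, Mhrt and the heart genes Nppb and Myl7 had few counts, and their values are imprecise.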

Other observations

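Markers of other cells in hindlimb tissue also differed between groups. Fibroblast genes (Col1a1, Col3a1 and Pdgfra) summed to 2632 to 4849 CPM in WT and 1498 to 2324 CPM in SMA. Of these 2 fell and 1 rose (100% called, beside 54.9% of all genes tested). Brown fat genes (Ucp1, Cidea and Elovl3) summed to 21.04 to 153 CPM in WT and 14.1 to 20.1 CPM in SMA. Among them Ucp1 fell, Elovl3 rose and Cidea did not pass (66.7% called, beside 54.9% of all genes tested). Ucp1 alone had 119 CPM in WT 5. Endothelial genes (Pecam1 and Cdh5) had overlapping sums of 332 to 438 CPM and 327 to 392 CPM. The part of these cells in the heavy chain results was not tested.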
